A study of Homo sapiens with 12 samples.

Results

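The members described here are 8 genes of the Notch pathway: the receptors NOTCH1, NOTCH2 and NOTCH3, the ligands JAG1 and JAG2, and the target genes HES1, HES4 and HEY1. They were found by symbol among the 25365 names of a table of expression values from RNA-seq of A549 cells, an epithelial line from a human lung adenocarcinoma. NOTCH3 was chosen by its measured values, because it was lower in PARP3-/- cells than in wild-type cells, and the other 7 genes were taken as its comparison. The difference of the members between genotypes is therefore given as a description, without a test, whereas their response to pyridostatin was not used in the choice and was tested.

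The 4 groups were wild-type (WT) and PARP3-/- A549 cells, each given DMSO (vehicle) or 1 µM pyridostatin, a small molecule that binds and stabilizes G4 DNA, for 24 h, with 3 libraries in each group. PARP3 is an ADP-ribosyltransferase that acts in the repair of DNA breaks. The knockout cells had been made with Cas9 and cloned by serial dilution, so that a difference between genotypes cannot be told apart from a difference between a cloned line and its parent. The submitters' design text calls the replicates a biological triplicate without saying how the cultures were separated, and p-values measure the spread between these libraries. The question behind the comparison was whether loss of PARP3 or the G4 ligand changed transcription.

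Values are FPKM, the fragments counted for a transcript after division by its length and by the mapped reads of the library, as the authors deposited them. Depth, estimated from values that correspond to single reads, was about 22000000 to 31100000 reads per library (median 25500000). PARP3 mRNA was not lower in the libraries labelled PARP3-/-: its level was 3.73 ± 0.293 FPKM in WT and 4.41 ± 0.447 FPKM in PARP3-/- cells with vehicle (SD, n = 3), and 3.79 ± 0.243 and 4.58 ± 0.245 FPKM with pyridostatin (exact two-sided permutation p = 0.1 for both, the smallest that 3 against 3 libraries allow). The study describes a small Cas9 deletion within the first exon of PARP3, so the level of the whole transcript gives no check of the genotype labels, and directions below are those between the labelled groups. All 6 epithelial markers were expressed (summed level 6910 to 8630 FPKM), and CDKN2A, which A549 cells have lost, was listed at 0 in all 12 libraries. Replicate 2 of WT with vehicle stood apart: its FPKM values summed to 563473, against 492839 to 525124 in the other 11 libraries, and its mean correlation with the other libraries of its group was the lowest, at 0.9577. Differences that this library moved most are also given without it.

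Notch receptors are single-pass membrane proteins that are cut by furin on their way to the surface and bind Jagged or Delta ligands on a neighbouring cell. Ligand binding lets ADAM proteases and then gamma-secretase cut the receptor, and the released intracellular domain enters the nucleus, where it joins the DNA-binding protein RBPJ and Mastermind co-activators to switch on genes of the HES and HEY families, which encode transcriptional repressors. Without the intracellular domain RBPJ binds co-repressors. In the airway, Notch signalling directs progenitor cells towards secretory rather than ciliated fates.

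The promoters of 3 members are shown because they carry features that bear on the agents used here and on the pathway's own readout. RefSeq windows from 250 bases before to 50 bases after the annotated start (GRCh38.p14) were at hand for 7 of the 8 members, not for HEY1. The window of NOTCH3, the member chosen by its values, lies on the minus strand at chr19:15200946-15201245. It held 3 separate matches to a G4 pattern, that is, 4 runs of at least 3 G with loops of 1 to 7 bases. All were on the gene's own strand, which was not particular to NOTCH3. The capitals mark the G runs of these matches.

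NOTCH3: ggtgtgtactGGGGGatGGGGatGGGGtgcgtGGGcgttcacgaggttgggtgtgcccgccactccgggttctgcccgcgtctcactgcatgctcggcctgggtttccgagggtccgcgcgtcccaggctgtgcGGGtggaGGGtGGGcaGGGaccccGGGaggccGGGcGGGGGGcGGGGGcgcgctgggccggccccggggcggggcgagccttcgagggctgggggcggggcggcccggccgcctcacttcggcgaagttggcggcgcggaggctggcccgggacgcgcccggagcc

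The matches of NOTCH3 lay at bases -240 to -216, -116 to -98 and -92 to -69 from the start. The pattern was also found 4 times in the window of NOTCH1. There it lay at -79 to -52, -49 to -27 and 18 to 41 on the gene's own strand, and at -211 to -190 on the opposite strand. It was found 2 times each in the windows of JAG1 and JAG2, on the opposite strand, and not at all in those of NOTCH2, HES1 and HES4. Of all 35116 promoter windows, 25.0% held the pattern on either strand, as did 34.0% of the 12680 windows of tested genes. The windows were rich in G and C, from 59.0% in HES1 to 79.7% in JAG2, with 78.3% in NOTCH3.

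The 2 HES genes were the members whose windows held the core of the RBPJ binding site, spelled TGGGAA and searched on both strands. A stretch of 80 bases of each is shown, for HES1 on the plus strand at chr3:194136038-194136117 and for HES4 on the minus strand at chr1:1000128-1000207, with each core in capitals.

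HES1: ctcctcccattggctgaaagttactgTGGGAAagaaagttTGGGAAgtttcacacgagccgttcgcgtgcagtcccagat
HES4: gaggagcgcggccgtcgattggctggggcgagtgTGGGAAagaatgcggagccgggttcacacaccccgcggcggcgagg

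HES1 held 2 cores, beginning at bases -84 and -70 from its start, and HES4 held 1, beginning at base -76. A match of letters is a description and not a site of binding. The core was present in 24.0% of all windows and in 21.4% of those of tested genes.

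**Figure D1:**
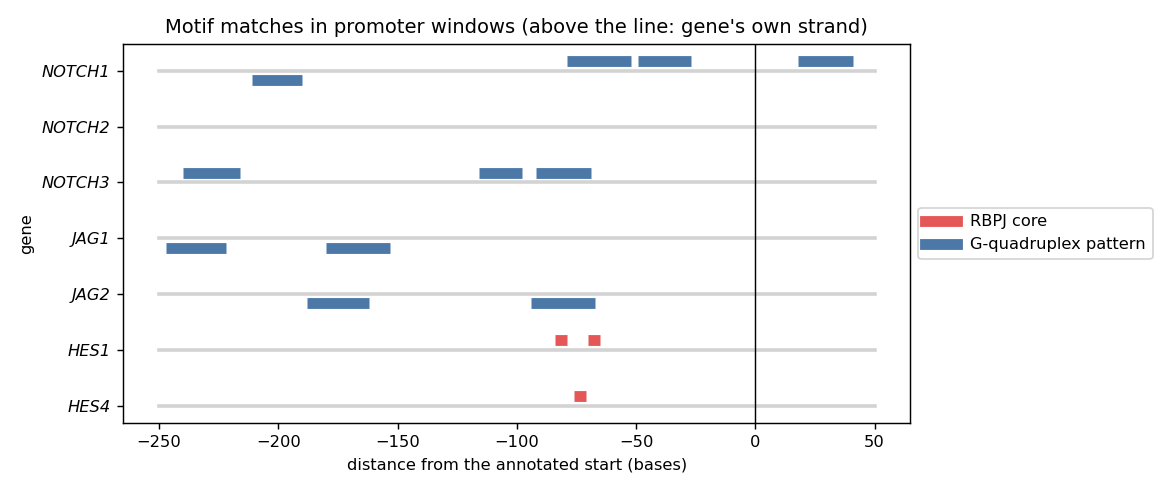
Matches to the RBPJ core (red) and to the G4 pattern (blue) in the promoter windows of 7 members, by distance in bases from the annotated start; bars above a line are on the gene's own strand and bars below it on the opposite strand. The cores lie in HES1 and HES4, and the 3 matches of NOTCH3 lie before its start.

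Among the receptors, NOTCH3, which had been chosen for its difference, differed most between the genotypes. It was listed at 2.36, 2.09 and 2.50 FPKM in the 3 WT libraries with vehicle and at 0.581, 0.708 and 0.746 FPKM in the 3 labelled PARP3-/-. With pyridostatin it was at 1.97, 2.26 and 2.24 FPKM in WT and at 0.645, 0.584 and 0.733 FPKM in PARP3-/- libraries. Every WT library was above every PARP3-/- library, and the highest PARP3-/- value was far below the lowest WT value in either treatment. The group means were 2.31 ± 0.208 and 0.679 ± 0.0865 FPKM with vehicle (SD, n = 3), a 3.41-fold lower level, and 2.16 ± 0.16 and 0.654 ± 0.0746 FPKM with pyridostatin, a 3.3-fold lower level. On the log2(FPKM + 1) scale, which understates the change of a gene this low, the differences were -0.98 (SE 0.0726) and -0.93 (SE 0.0726); with a pseudocount of 0.1 in place of 1 they were -1.64 and -1.58. In bulk RNA, fewer cells that express the gene and less RNA per cell cannot be told apart.

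NOTCH3 was a weakly expressed receptor even in WT cells, where 13.3% of the 11881 tested genes were lower with vehicle, against 0.648% in PARP3-/- cells. It corresponded to roughly 450 to 610 reads in the WT libraries and 130 to 160 reads in the PARP3-/- libraries, and counting error alone was at most 8.8% of a value. A mean of at least 1 FPKM over all 12 libraries was required for a test, and NOTCH3 passed it through its WT level only.

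NOTCH1, which like NOTCH3 is cleaved to an intracellular domain that works with RBPJ, overlapped between the genotypes. With vehicle it was at 3.03, 2.64 and 3.38 FPKM in WT and 2.91, 2.61 and 2.78 FPKM in PARP3-/- libraries, and with pyridostatin at 3.74, 3.34 and 3.83 FPKM in WT and 3.57, 3.68 and 3.97 FPKM in PARP3-/- libraries. Neither treatment separated them (difference -0.09 with vehicle and 0.03 with pyridostatin, SE 0.0728).

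NOTCH2, the most abundant receptor in all 12 libraries, lay on the other side. It was at 5.94, 4.25 and 6.20 FPKM in WT and 6.93, 6.67 and 7.04 FPKM in PARP3-/- libraries with vehicle, and at 6.40, 5.76 and 6.44 FPKM and 6.92, 7.30 and 8.14 FPKM with pyridostatin. The PARP3-/- libraries were the higher ones in both treatments without overlap, by 0.30 (SE 0.105) and 0.23 (SE 0.105) on the log2 scale. The low value of 4.25 FPKM came from the WT library that stood apart, and without it the vehicle difference was 0.16. NOTCH2NL, a near-identical partial copy of NOTCH2 with which reads can be shared, was at 2.55 ± 0.0387 and 2.92 ± 0.117 FPKM with vehicle, so the split of reads between both genes is uncertain.

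Seen as shares of the summed FPKM of the 3 receptors, NOTCH3 made up 21.6% ± 1.45 in WT and 6.58% ± 0.871 in PARP3-/- cells with vehicle (SD, n = 3), and 18.0% ± 1.8 and 5.51% ± 0.403 with pyridostatin. NOTCH2 took the larger share in the libraries labelled PARP3-/-, 66.6% ± 0.154 against 50.4% ± 2.69 with vehicle, while NOTCH1 held 26.8% ± 1.01 against 28.1% ± 1.33. The summed level of the 3 receptors was 10.8 ± 1.61 FPKM in WT and 10.3 ± 0.306 FPKM in PARP3-/- cells with vehicle, and 12 ± 0.581 and 11.9 ± 0.884 FPKM with pyridostatin, so the means of the sums differed by less than the larger SD. With vehicle this rests on the WT library that stood apart: without it the WT sums were 11.3 and 12.1 FPKM, above the 9.98 to 10.6 FPKM of the PARP3-/- libraries. NOTCH4, the remaining receptor, was listed at 0 in all libraries.

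**Figure D2:**
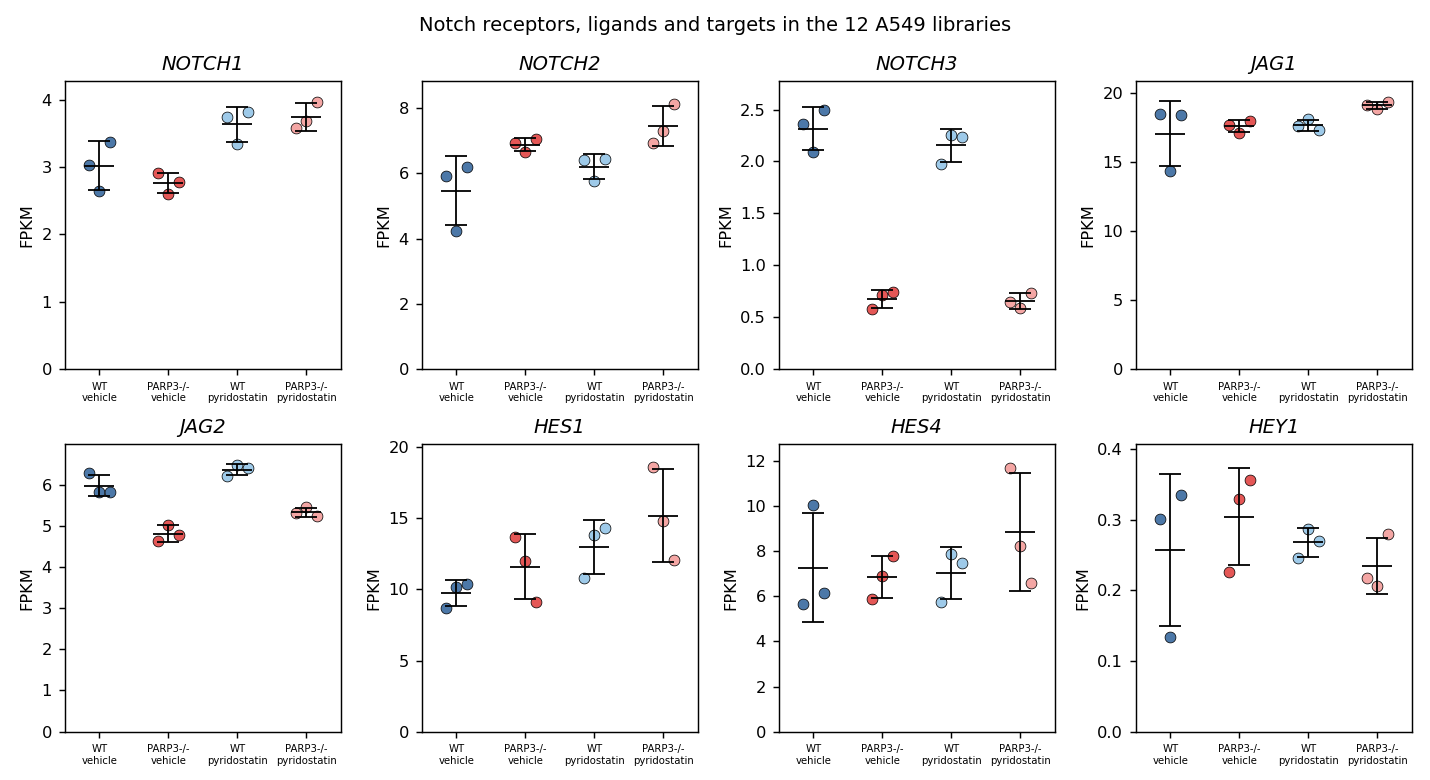
FPKM of the 8 members in each library (points, 3 in each of the 4 groups), with the mean (horizontal mark) and SD (bars); each panel has its own axis from 0. NOTCH3 separates by genotype in both treatments, JAG2 does so by a smaller step, and the HES1 and HES4 groups are wide.

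Of the ligands, JAG1 was the most abundant member in every group and JAG2 was the lower of the pair. JAG1 was at 18.5, 14.3 and 18.4 FPKM in WT and 17.7, 17.1 and 17.96 FPKM in PARP3-/- libraries with vehicle, and at 17.6, 18.1 and 17.3 FPKM and 19.2, 18.8 and 19.4 FPKM with pyridostatin. The genotypes overlapped with vehicle (difference 0.05, SE 0.0769), and with pyridostatin the PARP3-/- libraries were the higher ones (0.11, SE 0.0769). The lowest value was again that of the WT library that stood apart, and the vehicle difference without it was -0.07.

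JAG2 was lower in every library labelled PARP3-/-. With vehicle it was at 6.29, 5.82 and 5.83 FPKM in WT and 4.63, 5.02 and 4.78 FPKM in PARP3-/- libraries. With pyridostatin it was at 6.21, 6.49 and 6.39 FPKM in WT and 5.32, 5.45 and 5.23 FPKM in PARP3-/- libraries. The level in PARP3-/- cells was 0.805 times that in WT cells with vehicle and 0.838 times with pyridostatin (differences -0.26 and -0.22, SE 0.043). This was a far smaller step than that of NOTCH3, which had been chosen for its difference.

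The targets did not separate by genotype. HES1, the classical Notch target, was at 8.68, 10.1 and 10.4 FPKM in WT and 13.6, 11.98 and 9.13 FPKM in PARP3-/- libraries with vehicle, and at 10.8, 13.8 and 14.3 FPKM and 18.6, 14.8 and 12.1 FPKM with pyridostatin. The means were the higher ones in PARP3-/- cells (11.6 ± 2.28 against 9.72 ± 0.911 FPKM with vehicle), but the libraries overlapped in both treatments, and the differences were 0.22 (SE 0.167) and 0.20 (SE 0.167). HES4, a related repressor, was at 5.65, 10.0 and 6.14 FPKM in WT and 5.89, 6.89 and 7.79 FPKM in PARP3-/- libraries with vehicle, and at 5.73, 7.89 and 7.48 FPKM and 11.7, 8.23 and 6.60 FPKM with pyridostatin. Its spread within groups was as wide as any difference between them: -0.05 (SE 0.219) with vehicle, which was 0.18 without the WT library that stood apart and held the 10.0 FPKM, and 0.27 (SE 0.219) with pyridostatin.

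HEY1, a Hairy-related repressor, was the lowest member. Its values ran from 0.134 to 0.335 FPKM in WT and from 0.227 to 0.357 FPKM in PARP3-/- libraries with vehicle, and from 0.247 to 0.287 and from 0.207 to 0.280 FPKM with pyridostatin. These stand for about 8 to 21 reads a library, for which counting error reaches 35.0% of the lowest value, and the differences between genotypes were 0.06 with vehicle and -0.04 with pyridostatin in a fit without the filter.

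In order of their levels per length, the members with vehicle ran JAG1, HES1, HES4, JAG2, NOTCH2, NOTCH1, NOTCH3 and HEY1 in WT cells. HES1 overlapped with HES4, HES4 with JAG2 and JAG2 with NOTCH2, whereas every HES1 value was above every value of JAG2 and NOTCH2, and JAG1 and the 3 lowest genes stood apart from their neighbours. In PARP3-/- cells with vehicle the order was JAG1, HES1, NOTCH2, HES4, JAG2, NOTCH1, NOTCH3 and HEY1, and NOTCH2 and HES4 alone overlapped. With pyridostatin JAG1 and HES1 led in both genotypes and NOTCH1, NOTCH3 and HEY1 closed the order, each apart from its neighbour.

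By the threshold used in the other comparisons, a limma adjusted p under 0.05, 2 of the 7 members that passed the filter, NOTCH3 and JAG2, lay on the called side and were lower in each of the 2 genotype comparisons, which is given as a description and not as a test. Among all tested genes 9.41% passed with vehicle (6.40% higher and 3.01% lower in PARP3-/- cells) and 10.9% with pyridostatin (7.07% higher and 3.85% lower). Without the WT library that stood apart 4 members passed with pyridostatin. The share of all genes called in that fit is not given, so the 4 cannot be set against the 10.9%. NOTCH3 was chosen on this contrast and passed the filter through its WT level, so nothing is read from the count. The 2 comparisons share no library.

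**Figure D3:**
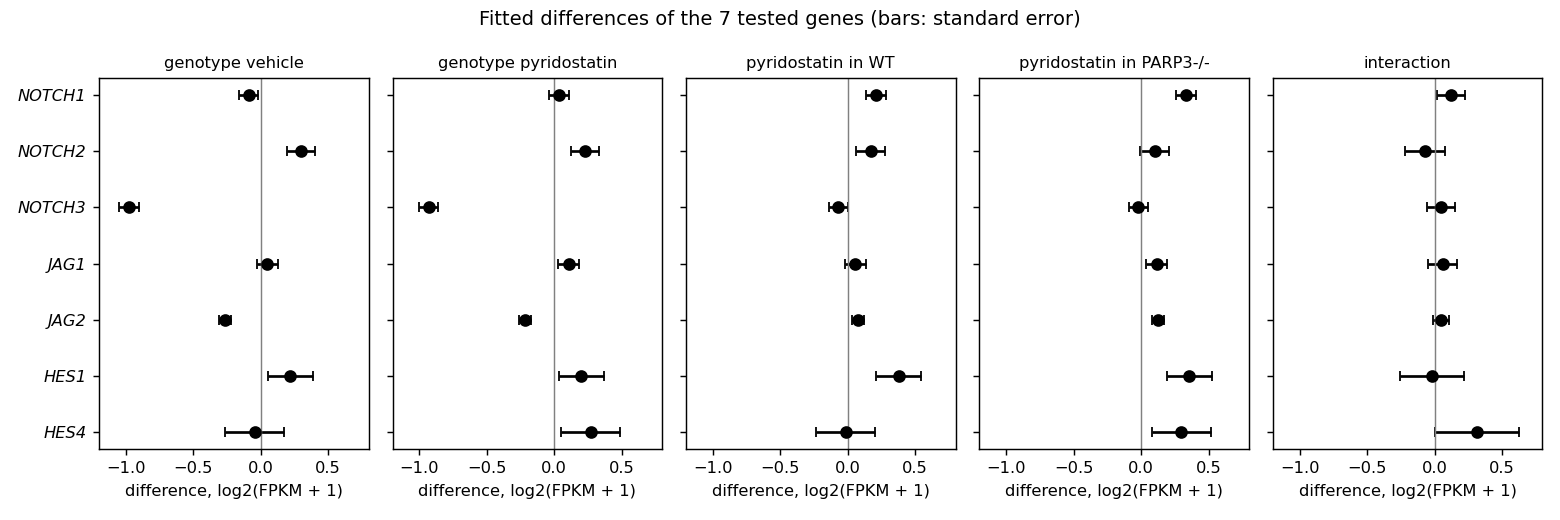
Fitted differences on the log2(FPKM + 1) scale (points) with standard errors (bars) of the 7 tested members in 5 comparisons: PARP3-/- minus WT with vehicle and with pyridostatin, pyridostatin minus vehicle in WT and in PARP3-/- cells, and the difference of the 2 responses. NOTCH3 lies at -0.98 and -0.93 in the genotype panels and near 0 in the others, and NOTCH1 lies at 0.33 with pyridostatin in PARP3-/- cells.

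By the limma test pyridostatin changed 1 member, NOTCH1, and this call was made in PARP3-/- cells. NOTCH1 rose there from 2.77 ± 0.154 to 3.74 ± 0.204 FPKM (n = 3), a ratio of 1.35, and all 3 treated libraries were above all 3 vehicle libraries. The log2 difference was 0.33 (SE 0.0728, 95% interval 0.17 to 0.49, limma adjusted p = 0.0254). The call did not hold in 5 of 19 alternatives, each of which left out 1 library of the comparison. The limma adjusted p was 0.0531, 0.102 and 0.0787 without replicates 1, 2 and 3 of PARP3-/- with vehicle. It was 0.0767 and 0.113 without replicates 2 and 3 of PARP3-/- with pyridostatin. Among the libraries of the comparison, only replicate 1 of PARP3-/- with pyridostatin could be left out without loss of the call. Several of the 19 left out a WT library, which cannot move this difference, so the call is fragile. In WT cells NOTCH1 went from 3.02 ± 0.366 to 3.64 ± 0.258 FPKM, with overlapping libraries and a difference of 0.21 (SE 0.0728, 95% interval 0.05 to 0.37) that missed the threshold (limma adjusted p = 0.143). No difference between the 2 responses was called (0.12, 95% interval -0.10 to 0.35, limma adjusted p = 0.999).

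NOTCH3 showed no detectable response. The difference between pyridostatin and vehicle was -0.07 (95% interval -0.23 to 0.09, limma adjusted p = 0.644) in WT and -0.02 (95% interval -0.18 to 0.14, limma adjusted p = 0.919) in PARP3-/- cells. The libraries of both treatments overlapped in each genotype. The change of its genotype difference with pyridostatin was 0.05 (95% interval -0.18 to 0.28, limma adjusted p = 0.999), and at a level this low these intervals on the log2(FPKM + 1) scale are narrower than they would be for the ratio itself.

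HES1 had the largest response in WT cells, 0.38 (SE 0.167, 95% interval 0.01 to 0.75), and the WT libraries with pyridostatin were all above those with vehicle, the nearest being 10.8 against 10.4 FPKM. The limma p was 0.0457 before and 0.237 after adjustment, so the difference missed the threshold. In PARP3-/- cells the difference was 0.36 (95% interval -0.01 to 0.73, limma adjusted p = 0.271) with overlapping libraries.

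The other members gave no call. JAG2 differed by 0.08 (95% interval -0.02 to 0.17, limma adjusted p = 0.34) in WT and by 0.13 (95% interval 0.03 to 0.22, limma adjusted p = 0.13) in PARP3-/- cells, where the treated libraries were the higher ones without overlap. JAG1 differed by 0.06 (limma adjusted p = 0.737) and 0.12 (limma adjusted p = 0.469), again without overlap in PARP3-/- cells. Leaving out the WT vehicle library that stood apart gave a limma adjusted p of 0.0276 in PARP3-/- cells. The difference there was unchanged, because this library is not in that comparison. Without that library the differences in WT cells were -0.06 for JAG1, in place of 0.06, 0.03 for NOTCH2 and 0.21 for HES4, with limma adjusted p-values of 0.294, 0.855 and 0.568. With all libraries, NOTCH2 (0.17 and 0.10), HES4 (-0.02 and 0.30) and HEY1 (0.02 and -0.08, fitted without the filter on low genes) had adjusted p-values of 0.402 and 0.675, 0.98 and 0.513, and 0.956 and 0.628 by limma. The wide interval of HES4 in PARP3-/- cells, -0.19 to 0.78, leaves room for a sizeable change.

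In all, 0 of 7 tested members passed in WT and 1 of 7 in PARP3-/- cells. Over all tested genes pyridostatin gave calls for 4.17% in WT (2.79% higher and 1.38% lower) and 5.56% in PARP3-/- cells (3.05% higher and 2.52% lower). At an unadjusted limma p under 0.05, NOTCH1 and HES1 were the members that passed in WT cells, where 20.3% of all tested genes did, and NOTCH1 and JAG2 those in PARP3-/- cells, where 19.6% did. Of the difference between the responses, 0% of tested genes were called by limma, with 521 of 11881 at an unadjusted p under 0.05 and a smallest adjusted p of 0.587.

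Beyond the members, a list of 60 genes of the Notch pathway was examined, of which 49 passed the filter. With vehicle, 6 of the 49 (12.2%) differed between genotypes against 9.41% of all tested genes, 3 higher and 3 lower in PARP3-/- cells, and with pyridostatin 5 (10.2%) did so against 10.9%, 4 higher and 1 lower. The list was thus called about as often as genes at large, and its median difference was 0.04 and 0.05 against 0.02 and 0.01 over all tested genes. Without replicate 2 of WT with vehicle, the library that stood apart, 7 and 12 of the list were called. No share of all genes is given for fits with a library left out, so their counts cannot be set against the shares above. The count with vehicle was 3 without replicate 2 or 3 of PARP3-/-, and that with pyridostatin was 2 without replicate 1 or 3 of WT or 2 or 3 of PARP3-/- cells. All called differences lay between -0.32 and 0.29. That of NOTCH3 was larger in size, but NOTCH3 was chosen for its difference, so this is no separate result.

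The TLE genes, which encode Groucho-related co-repressors, made up 3 of the 6 called genes with vehicle and 2 of the 5 with pyridostatin. TLE3 was at 4.98, 4.35 and 4.64 FPKM in WT and 3.51, 3.48 and 3.59 FPKM in PARP3-/- libraries with vehicle, and it was lower in both treatments (-0.32, limma adjusted p = 0.00136, and -0.29, limma adjusted p = 0.00217). TLE1 was the mirror image: at 14.4, 16.3 and 14.0 FPKM in WT and 17.3, 17.3 and 17.9 FPKM in PARP3-/- libraries with vehicle, it was higher in both (0.23, limma adjusted p = 0.0218, and 0.29, limma adjusted p = 0.00456). TLE2, close to the filter at 1.30, 1.17 and 1.16 against 0.849, 0.833 and 0.909 FPKM, was lower with vehicle (-0.25, limma adjusted p = 0.0198). Its PARP3-/- libraries with vehicle were below the mean of 1 FPKM that the filter asks for. It was thus tested through the level of its other groups, and its call is weaker for that. Thus 3 of 10 co-repressors passed with vehicle and 2 of 10 with pyridostatin, in both directions, against 9.41% and 10.9% of all tested genes. The co-repressors are singled out because of these calls, so nothing is read from the counts. TLE3 kept both calls in the 19 alternatives that changed the fit, the scaling or the libraries and still tested it; it was not tested at a mean of at least 5 FPKM and does not reach a log2 change of 1. TLE1 lost that with vehicle without replicate 1 or 3 of WT (adjusted p = 0.072 and 0.08) or any replicate of PARP3-/- (0.0544, 0.063 and 0.0824), as well as after a shift to a common median (0.088) and with only the libraries of the comparison (0.137), and TLE2 lost its call without replicate 1 of WT (0.0594) or replicate 2 of PARP3-/- (0.0656).

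Among the enzymes and adaptors, FURIN, the protease that cuts the receptor precursor, rose from 14.7, 14.5 and 14.6 FPKM in WT to 16.7, 17.5 and 18.5 FPKM in PARP3-/- libraries with vehicle (0.25, limma adjusted p = 0.0135) and was higher with pyridostatin too (0.22, limma adjusted p = 0.026). NEURL1B, a ubiquitin ligase of Notch ligands, was higher in both treatments (0.20, limma adjusted p = 0.0302, and 0.20, limma adjusted p = 0.0309). Leaving out replicate 3 of PARP3-/- with vehicle took FURIN to an adjusted p of 0.0603, and with pyridostatin it lost its call without replicate 1 or 3 of WT (0.108 and 0.076) or 2 or 3 of PARP3-/- (0.105 and 0.108) or with only the libraries of the comparison (0.0582). NEURL1B lost its call with vehicle without replicate 3 of WT (0.0527) or any replicate of PARP3-/- (0.081, 0.0546 and 0.0979), after the shift to a common median (0.0617) and with only the libraries of the comparison (0.099), and with pyridostatin without any replicate of WT (0.0958, 0.0577 and 0.0899) or replicate 2 or 3 of PARP3-/- (0.0729 and 0.115). NUMBL, a relative of the Notch antagonist NUMB, was lower with vehicle, at 13.85, 14.08 and 13.85 against 11.99, 11.96 and 11.98 FPKM (-0.20, limma adjusted p = 0.0125). NOTCH2NL was higher with pyridostatin (0.17, limma adjusted p = 0.0358), and it lost the call in 9 of 19 alternatives, among them 6 of the 12 that left out a library (each of the 3 replicates of both pyridostatin groups, adjusted p 0.0562 to 0.13).

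None of the 9 genes of the nuclear complex passed in any comparison by limma, while at an unadjusted p under 0.05 there were 2 and 3 of them between genotypes (vehicle and pyridostatin), 3 and 4 with pyridostatin in WT and in PARP3-/- cells, and 1 for the difference of the responses. Of all tested genes, 21.6% and 24%, 20.3% and 19.6%, and 4.39% were at such a p. RBPJ itself differed by 0.03 (adjusted p = 0.849) and 0.08 (adjusted p = 0.546). Of the further genes listed with the targets, HES6, HEYL and NRARP passed the filter. None was called by limma between genotypes (0 and 1 at an unadjusted p under 0.05), HEYL coming nearest with pyridostatin (0.20, adjusted p = 0.0637). The ligand DLL3, at a level near that of JAG2, differed by -0.15 with vehicle (adjusted p = 0.434).

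Pyridostatin raised 1 of the 49 genes, TLE4, in both genotypes. This co-repressor went from 7.49, 6.77 and 7.70 to 8.61, 9.15 and 8.75 FPKM in WT and from 8.10, 7.79 and 7.68 to 9.63, 10.3 and 10.3 FPKM in PARP3-/- cells, with no overlap in either. The differences were 0.24 (limma adjusted p = 0.0236) and 0.32 (limma adjusted p = 0.00441). The call in WT was lost in 4 of 20 alternatives: with only the libraries of the comparison (adjusted p = 0.198) and without each replicate of WT with pyridostatin (0.0701, 0.0672 and 0.0699 for replicates 1, 2 and 3), whereas the call in PARP3-/- cells held in all 20. Without replicate 2 of WT with vehicle 8 genes of the list were called in PARP3-/- cells and 2 in WT cells, and 2 were called in PARP3-/- cells without replicate 2 of PARP3-/- with vehicle or replicate 2 of WT with pyridostatin, and 2 in WT cells without replicate 1 of WT with vehicle or replicate 2 of PARP3-/- with pyridostatin. With all libraries, a share of 2.04% of the list was thus called in each genotype, below the 4.17% and 5.56% of all tested genes. For the fits with a library left out no share of all genes is given.

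Among the 11 listed genes below the filter, NOTCH4 and HES5 were at 0 throughout. HES2 is a gene of the HES family that was listed with the targets, and it is named here after its values were seen. Whether it answers to Notch in these cells was not tested. It was at 0.200, 0.103 and 0.203 FPKM in WT with vehicle and at 0.423, 0.490 and 0.392 FPKM with pyridostatin. In PARP3-/- cells it went from 0.117, 0.158 and 0.122 to 0.336, 0.425 and 0.360 FPKM. Both genotypes separated by treatment without overlap, and in a fit without the filter the differences were 0.30 (limma adjusted p = 0.00473) and 0.28 (limma adjusted p = 0.00562) over 19332 genes, at a level of few reads. In the same fit HES7, another HES gene listed with the targets, was lower in PARP3-/- cells with vehicle. It was at 0.748, 0.740 and 0.645 against 0.972, 1.23 and 0.901 FPKM (-0.25, limma adjusted p = 0.0482). The ligand DLL1 was higher in PARP3-/- cells with pyridostatin, at 0.169, 0.174 and 0.141 against 0.0885, 0.0846 and 0.0227 FPKM (0.13, limma adjusted p = 0.0279). DLK1, a non-canonical ligand, was listed at 0 in 9 libraries and at 0.0248, 0.0422 and 0.0510 FPKM in WT cells with pyridostatin. DLL1 and DLK1 were at still lower levels than HES2, so they too rest on few reads. HES7, DLL1 and DLK1 were, like HES2, named after their values were seen. The share of the 19332 genes called in the fit without the filter is not given, so nothing is read from these calls.

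**Figure D4:**
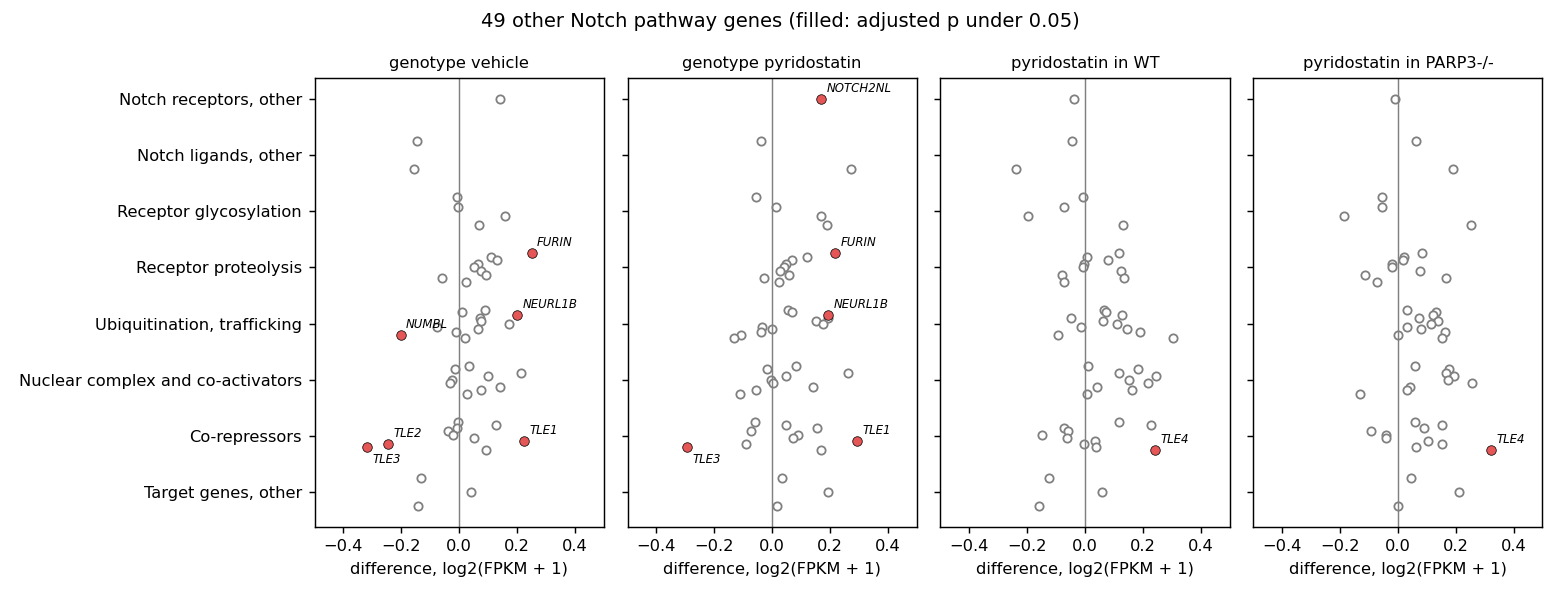
Fitted differences on the log2(FPKM + 1) scale of 49 other Notch pathway genes, grouped by role, for the 2 genotype comparisons (PARP3-/- minus WT) and the 2 pyridostatin comparisons (pyridostatin minus vehicle); filled points have an adjusted p under 0.05 and are named. The named genes stay between -0.32 and 0.32, with TLE3 lowest and TLE1, FURIN and NEURL1B on the higher side, and TLE4 is the one named in the pyridostatin panels.

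The genes beside NOTCH3 on chromosome 19 were examined because the PARP3-/- cells had been cloned. Of the 10 nearest tested genes on each side in the RefSeq order, 4 of 20 passed with vehicle and 3 of 20 with pyridostatin, against 9.41% and 10.9% of all tested genes. Without the WT vehicle library that stood apart, 6 of 20 passed with pyridostatin, and no share of all genes is given for that fit. ILVBL, an acetolactate synthase-like enzyme encoded beside NOTCH3, was not among them and differed by -0.10 (limma adjusted p = 0.434) with vehicle and -0.12 (limma adjusted p = 0.303) with pyridostatin. The called genes included 3 fatty acid omega-hydroxylases of the CYP4F family, the 5th to 7th genes after NOTCH3. CYP4F11 had means of 2.93 and 2.85 FPKM in WT cells and 0.101 and 0.088 FPKM in PARP3-/- cells with vehicle and pyridostatin (differences -1.83 and -1.82). It reached the filter through its WT level, as NOTCH3 did, so its values are given without a test although it is in both counts of called neighbours. CYP4F3 was lower by a lesser amount (-0.58, limma adjusted p = 0.00265, and -0.65, limma adjusted p = 0.00124), and CYP4F12 differed by -0.33 (limma adjusted p = 0.0445) and -0.30 (limma adjusted p = 0.0606). CYP4F genes are close paralogs, and the assignment of reads among them is uncertain. CD97, an adhesion receptor at the far end of the window, was higher (0.23, limma adjusted p = 0.0029, and 0.24, limma adjusted p = 0.00209). AKAP8, AKAP8L and WIZ, which lie between NOTCH3 and the CYP4F genes, were not called in either treatment.

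**Figure D5:**
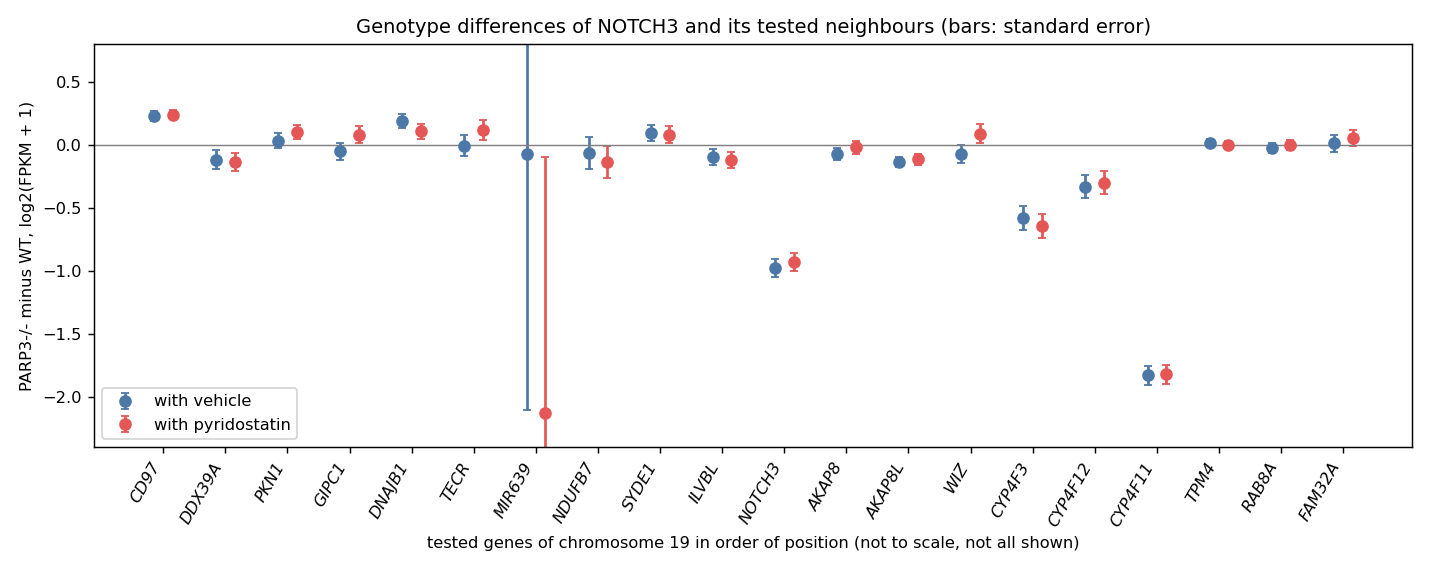
Genotype differences (PARP3-/- minus WT, log2(FPKM + 1)) of NOTCH3 and tested genes on either side of it in order of position (not every gene is shown), with vehicle (blue) and pyridostatin (red) and their standard errors. NOTCH3 and CYP4F11 lie near -0.98 and -1.83 with AKAP8, AKAP8L and WIZ closer to 0; the values of the very short RNA MIR639 have a standard error of 2.03 and its bars run past the axis.

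The 5 tested genes whose values were most like those of NOTCH3, by Pearson's r on log2(FPKM + 1) over the 12 libraries, were CA12 (0.9946), CEACAM5 (0.9936), CYP4F11 (0.992), CPS1 (0.9912) and CYP1B1 (0.991). The libraries form 2 clusters by genotype, which sets most of such a value. After the group means were taken off r was 0.71, 0.597, 0.421, 0.521 and 0.719, and no such r of other genes is given beside them. All 5 were lower in PARP3-/- cells, which follows from their choice by likeness to NOTCH3 and is no separate result. The mean level of CA12, a carbonic anhydrase, was 123 FPKM in WT and 75.5 FPKM in PARP3-/- libraries with vehicle. That of CPS1, an enzyme of ammonia disposal, was 12.7 and 1.19 FPKM. These 5 genes are given as a description. No other member was among them.

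Markers of other cell types were read beside these results. Of the leukocyte markers, CD3E was listed at 0 and PTPRC was at most 0.00776 FPKM, and the summed level was 3.35 to 4.42 FPKM in WT and 4.89 to 6.26 FPKM in PARP3-/- libraries with vehicle, nearly all of it CD14. The 4 endothelial markers summed to at most 0.383 FPKM. The 6 fibroblast and mural markers, of which COL1A1 and ACTA2 passed the filter, summed to 8.62 to 11.1 FPKM in WT and 12 to 13.4 FPKM in PARP3-/- libraries with vehicle, and to 16.6 to 17.3 and 18.9 to 22.2 FPKM with pyridostatin. The sum was mostly ACTA2, at 7.42 to 19.7 FPKM, and RGS5 was at 0.493 to 0.885 FPKM, COL1A1 at 0.572 to 1.63 FPKM, and PDGFRB, DCN and COL1A2 at no more than 0.0464, 0.0378 and 0.00794 FPKM in any library. Of the 6 epithelial markers, KRT19 was higher (0.85, limma adjusted p = 2.25e-05) and EPCAM (-0.53, limma adjusted p = 0.00126) and CDH1 (-0.42, limma adjusted p = 0.00117) were lower in PARP3-/- cells with vehicle. CD14 (0.515, limma adjusted p = 0.00822) and ACTA2 (0.31, limma adjusted p = 0.0481) were higher there. COL1A1 differed by 0.45, given without a test because it reached the filter through its PARP3-/- level. ACTA2 was higher with pyridostatin in WT (0.789, limma adjusted p = 0.000637) and in PARP3-/- cells (0.746, limma adjusted p = 0.000831). The part of these markers in the results on the Notch genes was not tested.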

How the data were processed

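RNA-seq had been made from total RNA of WT and PARP3-/- A549 cells by the authors (stranded mRNA libraries, single-end reads of 75 bases). The authors deposited one table of FPKM values from Cufflinks, with replicates not pooled; the submitters' processing notes also name bcl2fastq 2.16, STAR 2.5 and the builds hg19 and mm9, without their roles. Which isoforms and shared reads entered each value is not given in the sources used here. The authors tested counts with DESeq2; counts were not used here.

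From the FPKM values, log2(FPKM + 1) was fitted with limma 3.58.1 in R 4.3.3, with 1 model of the 4 groups (eBayes with trend, no block), for 11881 genes whose average across the 12 libraries reached 1 FPKM, and p-values were adjusted by Benjamini and Hochberg over all of them. A call is an adjusted p under 0.05. Of 25365 names, 28 had become dates, 2 occurred more than once and 6033 were at 0 throughout. Depth was estimated from 104 genes with values of single reads and transcript lengths of GENCODE, so read numbers are approximate. Sequences, gene order and motif matches used RefSeq tables (GRCh38.p14), read in Python 3.11.15 with pandas 2.3.3. The fit was checked on simulated data. The members and lists were chosen with earlier results of these data known. Named were all members, the called genes of the pathway list and of the neighbours, and the 5 genes most like NOTCH3 by Pearson's r. HES2, HES7, DLL1 and DLK1 below the filter and the uncalled genes RBPJ, HES6, HEYL, NRARP, DLL3, ILVBL, AKAP8, AKAP8L and WIZ were named after their values were seen. The alternatives tried were other pseudocounts, filters, scalings, fits, thresholds, a replicate block and each library left out. A few results are not reported here.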

Additional observations from a re-analysis of the deposited data

How the results depend on the processing

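Over 22 alternatives, 1091 of 1199 values were taken as unchanged. For tested differences this means the same side of the threshold, with the direction kept where the difference was called. For genotype differences of members it means a move of less than the replicate spread, and for counts of calls an equal or close count. Uncalled differences could change sign and still be taken as unchanged, as JAG1 with pyridostatin in WT did (-0.06 to 0.11). A library left out also cannot move a difference between groups that do not hold it. The number of unchanged values therefore does not measure how firm the called differences are. NOTCH3 stayed lower in PARP3-/- cells throughout: its difference was -1.64 with vehicle and -1.58 with pyridostatin at a pseudocount of 0.1, and -1.21 and -1.04 after quantile normalization, and it ran from -1.03 to -0.94 and from -0.98 to -0.90 with 1 library left out. Fold changes of genes under about 1 FPKM depend most on the pseudocount, and depth limits HEY1, HES2, DLL1 and DLK1.

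Counts of calls were small and moved with the settings. They are given for members and for the pathway list, and a count over all genes stands beside them at 1 of these settings only. With a mean of at least 5 FPKM, which leaves out NOTCH3, 1 member passed in each genotype comparison and 0 with pyridostatin in PARP3-/- cells, and the list gave 3 (genotype, vehicle), 2 (genotype, pyridostatin) and 2 (pyridostatin in WT). With an adjusted p under 0.05 and a log2 change above 1, 0 members passed in the 2 genotype comparisons and with pyridostatin in PARP3-/- cells. The list gave 0 in all 4 comparisons, and 1 neighbour (CYP4F11) passed in each genotype comparison. Of all 11881 tested genes, 43 and 47 passed between genotypes with vehicle and with pyridostatin. With pyridostatin, 6 passed in WT and 8 in PARP3-/- cells, so few genes at large passed and nothing is read from the counts of 0. At an adjusted p under 0.01 the list gave 1 and 2 between genotypes and 0 with pyridostatin in WT, and 0 members passed with pyridostatin in PARP3-/- cells. With pyridostatin in WT and in PARP3-/- cells, the list gave 3 and 2 without a filter, 0 and 2 with only the libraries of the comparison, 2 and 2 without a trend, and 2 in WT after quantile normalization. With only the libraries of the comparison 1 member and 2 neighbours passed between genotypes with vehicle, 5 neighbours passed with pyridostatin after quantile normalization, and 1 neighbour passed in each genotype comparison with a mean of at least 5 FPKM.

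With 1 library left out, members called ran from 2 to 2 and from 2 to 4 in the genotype comparisons and from 0 to 2 with pyridostatin in PARP3-/- cells, neighbours from 3 to 5 and from 3 to 6, and the list from 3 to 7, 2 to 12, 0 to 2 and 1 to 8 in the 4 comparisons. The upper ends of 4, 6, 12 and 8 came without replicate 2 of WT with vehicle. They belong to comparisons that do not hold this library, and the fitted differences there stayed the same. These were 0.23 for NOTCH2 and 0.29 for TLE1 between genotypes with pyridostatin, and 0.33 for NOTCH1 with pyridostatin in PARP3-/- cells. What changed was the spread, which 1 model estimates from all groups together. Why this library stood apart was not tested, and no share of all genes is given for these fits.

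Same-numbered replicates did not deviate together in every comparison (correlations of -0.12 to 0.216), so the numbers were not taken as pairs. With a replicate block, the list gave 6, 4, 1 and 1 calls, the members 2, 2, 0 and 1, the neighbours 4 and 3, and NOTCH3 kept -0.98 and -0.93. NOTCH2NL alone lost its call with pyridostatin between genotypes (adjusted p = 0.0625).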
